A study of Mus musculus with 14 samples.

Results

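The regions described here are the elements of open chromatin that were present in rods, in blue cones and in green cones of the mouse retina. They were found among 53204 elements of 200 bp, each centered on the summit of a peak of accessible chromatin. An element was taken when it overlapped, by 1 bp or more, a window of 100 bp on either side of a peak summit in each of 3 deposited peak lists, those of rods, of Nrl-/- photoreceptors and of double-sorted green cones. Of the 53204 elements, 21863 (41.1%) met this rule and are called the members. The peak lists were made from the same libraries as the counts, so counts at the members in these groups are given as a description and are not tested as evidence of openness.

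ATAC-seq, in which a transposase cuts accessible DNA and leaves sequencing adapters there, was used for open chromatin and RNA-seq for RNA. All cells came from mice 8 weeks of age on a C57BL/6 background and were sorted by fluorescence from dissociated retinas. Rods carried an Nrl-eGFP transgene, and blue cones were the Nrl-/- photoreceptors of mice with the same transgene and a knockout of Nrl, in which cells fated to be rods become cells like blue cones. They are a mutant model of blue cones and not native ones. Green cones carried an Opn1mw-GFP transgene. They were sorted a single time (replicates 1 and 2) or passed through the sorter again (replicates 3 and 4), and the latter came from sorts that included female mice. Each of the 4 groups had 2 ATAC-seq libraries, and rods and blue cones had 3 RNA-seq libraries each, which makes 14 libraries. The study's sort table calls the replicates biological, and with 2 or 3 per group p-values measure the spread between these samples only.

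Promoters of genes that most cells use are generally accessible in all of them, whereas distal enhancers and the promoters of genes with restricted use are more often open in particular cell types. In photoreceptors, the homeodomain factors CRX and OTX2 bind regulatory elements of rods and cones alike. NRL, a factor of the MAF family, and the nuclear receptor NR2E3 set the rod program.

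The ATAC-seq libraries held 1062403 to 5770075 counts in elements, with both double-sorted green cone libraries at the low end, and the RNA-seq libraries 18376770 to 26312895 counts in genes. Signal is given as CPM, which are counts scaled to the total over elements of each library, corrected by its factor of the trimmed mean of M values (TMM). Double-sorted green cone replicate 3 stood apart from the other libraries. Over the members, its log2(CPM + 1) values correlated with those of the other 7 libraries at Pearson's r of 0.640 to 0.819, and with its own replicate at 0.749, whereas the replicates of rods, blue cones and single-sorted green cones correlated at 0.975, 0.950 and 0.941. These correlations are over 21863 elements that share their library and its depth, and they are descriptions. For single-sorted green cone replicate 1, the study's sort table gives another mouse line than the label. An element in an Nrl intron with 0 counts in both blue cone libraries had 176 counts (43.0 CPM) in this library. It had 31.0 CPM in single-sorted replicate 2 and 17.1 and 17.1 CPM in the double-sorted libraries, so replicate 1 was not alone in having reads there. The study compared rods with double-sorted green cones and Nrl-/- photoreceptors, and the main tests here follow it. Single-sorted green cones are shown beside the main groups and entered no main test. Labels were otherwise as the markers say. RNA of Nrl, the targeted gene, was at 16366 ± 2783 normalized counts in rods against 735 ± 169 in blue cones (SD, n = 3). Opn1sw, the blue cone opsin gene, had 8641 ± 32.1 in rods against 1410490 ± 99499 in blue cones.

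Sequences are shown for members that carry the main patterns. They were read from the + strand of the mouse genome (RefSeq, GRCm38.p6), with 5′ to the left, and capitals mark matches on either strand to the 21 motifs searched, which are spelled out beside the motif results. The first set holds members whose signal was high or even in all groups. These are the promoter of Rps6ka2 (chr17:7169823-7170022, intergenic, centered 192 bp upstream of the start site) and that of Dcun1d4 (chr5:73490787-73490986, 139 bp upstream), which were among the 10 with the highest mean signal. An element 5107 bp upstream of Htr3a (chr9:48916106-48916305, intergenic) was among the 6 most even members, and the promoter of the opsin kinase gene Grk1 (chr8:13404812-13405011, intergenic, 169 bp upstream) stands for the phototransduction genes. An element 6239 bp upstream of Stard10 (chr7:101310747-101310946, intergenic) holds a CTCF motif and was chosen for display after its values were seen.
Rps6ka2 promoter: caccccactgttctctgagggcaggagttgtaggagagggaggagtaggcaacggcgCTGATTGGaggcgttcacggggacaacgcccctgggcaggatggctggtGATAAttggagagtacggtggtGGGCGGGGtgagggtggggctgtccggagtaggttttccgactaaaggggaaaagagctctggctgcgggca
Dcun1d4 promoter: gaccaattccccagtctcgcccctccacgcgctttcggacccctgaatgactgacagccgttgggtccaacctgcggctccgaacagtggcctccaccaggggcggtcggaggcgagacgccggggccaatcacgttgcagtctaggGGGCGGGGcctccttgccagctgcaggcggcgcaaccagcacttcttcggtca
Element upstream of Stard10: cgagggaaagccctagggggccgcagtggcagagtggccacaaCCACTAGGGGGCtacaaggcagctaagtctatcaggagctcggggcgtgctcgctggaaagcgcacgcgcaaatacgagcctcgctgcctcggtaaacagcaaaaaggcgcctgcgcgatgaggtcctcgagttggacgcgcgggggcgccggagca
Element upstream of Htr3a: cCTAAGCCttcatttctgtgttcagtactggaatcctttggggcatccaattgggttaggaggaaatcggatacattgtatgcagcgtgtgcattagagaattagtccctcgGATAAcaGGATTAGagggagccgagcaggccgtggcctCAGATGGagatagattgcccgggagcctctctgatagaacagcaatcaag
Grk1 promoter: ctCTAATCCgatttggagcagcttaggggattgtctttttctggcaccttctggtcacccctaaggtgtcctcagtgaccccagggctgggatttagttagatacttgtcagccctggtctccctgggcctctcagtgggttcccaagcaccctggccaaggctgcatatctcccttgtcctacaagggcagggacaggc

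The second set holds members with a large difference between rods and cones, in signal or in the RNA of their gene. Higher in rods were an element 20866 bp upstream of Itsn2 (chr12:4572042-4572241, intergenic) and elements in introns of Med13l (chr5:118619917-118620116), Adgrv1 (chr13:81527594-81527793) and Chchd3 (chr6:32981271-32981470). Higher in cones were an element 18790 bp upstream of Jam3 (chr9:27174111-27174310, intergenic), an element in an intron of Tex33 (chr15:78380768-78380967), and an element 649 bp upstream of Pde6c (chr19:38132032-38132231, intergenic). The promoter of Aqp1 (chr6:55336084-55336283, intergenic, 115 bp upstream) belongs to a gene whose RNA was far higher in rods.
Element upstream of Itsn2: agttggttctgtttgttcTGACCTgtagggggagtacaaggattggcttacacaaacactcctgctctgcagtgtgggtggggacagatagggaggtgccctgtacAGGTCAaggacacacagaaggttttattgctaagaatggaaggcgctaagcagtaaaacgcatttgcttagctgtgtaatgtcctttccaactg
Med13l intron: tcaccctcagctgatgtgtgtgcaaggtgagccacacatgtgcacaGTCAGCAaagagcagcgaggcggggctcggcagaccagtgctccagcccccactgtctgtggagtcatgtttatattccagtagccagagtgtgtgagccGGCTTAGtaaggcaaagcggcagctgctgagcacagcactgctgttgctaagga
Adgrv1 intron: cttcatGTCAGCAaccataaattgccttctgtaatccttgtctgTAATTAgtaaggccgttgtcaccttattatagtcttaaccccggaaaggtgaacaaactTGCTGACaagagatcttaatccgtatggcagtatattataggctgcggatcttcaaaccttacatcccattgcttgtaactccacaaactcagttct
Chchd3 intron: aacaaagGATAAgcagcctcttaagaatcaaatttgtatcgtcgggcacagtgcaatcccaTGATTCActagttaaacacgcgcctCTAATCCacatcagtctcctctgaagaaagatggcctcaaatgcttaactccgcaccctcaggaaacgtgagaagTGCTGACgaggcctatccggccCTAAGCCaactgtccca
Element upstream of Jam3: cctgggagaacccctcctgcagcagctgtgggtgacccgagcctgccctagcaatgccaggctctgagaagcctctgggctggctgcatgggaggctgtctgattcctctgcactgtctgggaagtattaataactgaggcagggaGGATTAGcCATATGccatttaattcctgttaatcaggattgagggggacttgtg
Tex33 intron: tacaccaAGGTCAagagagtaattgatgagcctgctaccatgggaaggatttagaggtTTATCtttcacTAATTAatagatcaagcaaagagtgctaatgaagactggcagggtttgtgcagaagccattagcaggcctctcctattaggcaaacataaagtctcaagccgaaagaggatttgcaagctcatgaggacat
Pde6c promoter: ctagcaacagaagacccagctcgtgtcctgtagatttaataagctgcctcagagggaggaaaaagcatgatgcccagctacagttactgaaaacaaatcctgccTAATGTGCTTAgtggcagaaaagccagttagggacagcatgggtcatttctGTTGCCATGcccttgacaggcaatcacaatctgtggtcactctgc
Aqp1 promoter: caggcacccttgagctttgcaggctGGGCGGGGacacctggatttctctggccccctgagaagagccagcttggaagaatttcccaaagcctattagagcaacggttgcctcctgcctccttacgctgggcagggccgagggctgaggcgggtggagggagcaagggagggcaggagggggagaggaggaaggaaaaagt

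Members took most of the signal in every library. They held 85.1% and 84.3% of the counts in elements in rods, 76.9% and 75.6% in blue cones, 71.9% and 74.7% in double-sorted green cones, and 75.7% and 74.5% in single-sorted green cones. Median signal at the members, in CPM, was 28.3 and 28.01 in rods, 23.6 and 23.6 in the blue cone libraries, 20.2 and 22.5 in the double-sorted green cone libraries, and 23.2 and 22.8 in the single-sorted ones. The medians of the other 31341 elements lay between 2.91 and 6.39 CPM in the 8 libraries. A count of 0 at a member was rare, with 124 members in double-sorted green cone replicate 3, 54 in replicate 4, and 0 to 8 in each of the other libraries. Because 3 of the 4 lists were used to choose the members, these levels are what the rule asked for. The list of single-sorted green cones was not used, and 21624 members (98.9%) overlapped a summit window of that list, as did 67.2% of the other elements.

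**Figure D1:**
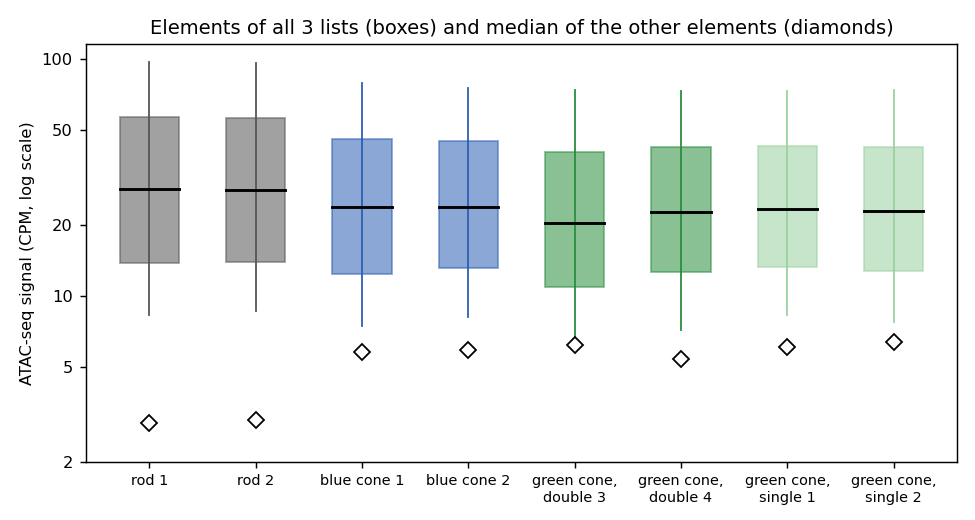
ATAC-seq signal at the 21863 members in each of the 8 libraries, in CPM on a log scale. Boxes span the quartiles with the median as a line, thin lines run from the 10th to the 90th percentile, and diamonds give the median of all other elements. Medians of the members lie between 20.2 and 28.3 CPM and those of the other elements between 2.91 and 6.39 CPM.

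At the members, peak summits of the different cells lay close to each other. The rule asks that summit windows of the rod, blue cone and double-sorted green cone lists overlap the same element. Nearness of their summits is therefore in part what the rule asked for. The distances, and the shares and enrichments of peaks at members, are given as descriptions. Only the list of single-sorted green cones was not used in the rule. The median distance between the nearest rod and blue cone summits at a member was 7 bp, and 88.1% of the members had them within 20 bp. The distance was 11 bp between rods and double-sorted green cones, 10 bp between blue and double-sorted green cones, and 8 bp between rods and single-sorted green cones. The members took 74.9% of the 29265 rod peaks, 53.0% of the 41346 blue cone peaks and 60.9% of the 36015 double-sorted green cone peaks. Among the 1000 peaks with the highest score in each list, 1000 were at members in rods, 999 in blue cones, 995 in double-sorted green cones and 999 in single-sorted green cones. The authors' fold enrichment over the local background had a median of 14.4 at members and 9.11 elsewhere in rods, 13.0 and 7.49 in blue cones, 10.7 and 7.54 in double-sorted green cones, and 11.1 and 5.90 in single-sorted green cones.

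Members fell into promoters and distal elements in nearly equal parts. A promoter element has its center in the stretch from 1000 bp before to 100 bp after a start site of a curated RefSeq transcript. By this definition 10442 members (47.8%) were at promoters, against 11.9% of the other elements, and the members were 73.7% of all 14172 promoter elements. They lay at a promoter of 9989 of 26180 genes (38.2%). Some 1505 promoter members served 2 or more genes, and 1747 genes had 2 or more such members. The center of 51.2% of the members lay between genes, which includes promoters just upstream of a start site, 33.6% in introns and 15.2% in exons. Over all members the median distance to the nearest start site was 434 bp, against 16551 bp in the other elements.

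Base composition followed position. Median GC content was 66.0% at promoter members and 53.0% at distal members, and 59.5% over all members against 50.5% in the other elements. The median number of CpG dinucleotides per element was 11 in members and 3 in the others. Median signal was higher at promoter members than at distal ones in each group, with medians of the group means of 44.5 and 18.5 CPM in rods, 37.2 and 16.4 in blue cones, and 33.1 and 15.8 in double-sorted green ones. GC content and signal also moved together within libraries, except at the highest GC content. The members were split into 5 nearly equal parts by GC content. Library medians lay between 14.01 and 17.95 CPM in the lowest part, and between 29.6 and 43.4 CPM in the next to highest. In the highest part they lay between 28.02 and 38.02 CPM, and each library was lower there than in the next to highest. Promoters made up 9.55%, 76.6% and 75.4% of these 3 parts. The part of GC content in the signal was not tested.

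Many members had a member as neighbor. The element next to a member was another member on at least 1 side for 15884 (72.7%), and the median distance between neighboring members was 24414 bp. Members made up 49.6% of the 901 elements of the X chromosome. The gene nearest to the most members was Ntm, which encodes a neuronal cell adhesion molecule, with 18 of its 63 elements. Next were the cyclin gene Ccnl1 (16 of 24), Xylt1 (14 of 33), which encodes a xylosyltransferase of proteoglycan synthesis, and Bcor (13 of 39), Gse1 (13 of 27) and Tbc1d22a (13 of 35). The RNA of none of these 6 genes passed the test between rods and blue cones.

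Of the 10 members with the highest mean signal, 8 were at promoters. An element in an intron of Kat6b, a histone acetyltransferase gene, 968 bp downstream of its start site, had 267 and 297 CPM in rods, 248 and 211 in blue cones, 283 and 220.3 in double-sorted green cones, and 225 and 266 in single-sorted green cones. The promoter of Rps6ka2, a ribosomal S6 kinase gene, had 258 and 289 CPM in rods, 221 and 197 in blue cones, and 278 and 168 in double-sorted green ones. At the promoter of Dcun1d4, whose product acts in cullin neddylation, the values were 214 and 218 CPM in rods, 206 and 187 in blue cones, and 279 and 206 in double-sorted green ones. Rods and cones overlapped at Dcun1d4 and Kat6b, and at Rps6ka2 1 green cone library lay among the rod values. The other 7 were the promoters of G3bp1, Ypel5, Smpd3, Bcl10, Edem3 and Aamp, and an element 52862 bp upstream of Wnt7b. The ratio of the highest to the lowest group mean was between 1.21 and 1.53 at all 10.

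Evenness was described by this ratio over rods, blue cones and double-sorted green cones. Its median over the members was 1.71, with 1.197 at the 10th and 3.07 at the 90th percentile, and 7772 members (35.5%) had a ratio under 1.5. At the other end, 944 members (4.32%) had a ratio over 4, and 6 had a group without a count. The median ratio was 1.61 at promoter members and 1.802 at distal ones. The highest group mean was that of rods at 58.3% of the members, of green cones at 22.7% and of blue cones at 19.005%, and these shares were 50.1%, 27.5% and 22.4% with total counts alone as library size, added after the data were seen, where the median ratio was 1.65. Without double-sorted green cone replicate 3 the median ratio remained 1.71, 34.7% were under 1.5 and 5.11% over 4.

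The most even members of at least 20 CPM in every group were the promoters of Ccdc174, Tfam, Prdm4, Plgrkt and Nr2c2, and the element upstream of Htr3a. At the promoter of Tfam, the mitochondrial transcription factor A gene, signal was 67.1 and 66.2 CPM in rods, 58.8 and 74.9 in blue cones, and double-sorted green cones had 63.1 and 71.0. The promoter of Prdm4, a zinc finger factor gene, had 157 and 153 CPM in rods, 163 and 145 in blue cones, and double-sorted green cones had 174 and 133. The Htr3a element, near a serotonin receptor gene, had 25.8 and 26.9 CPM in rods, 22.4 and 30.9 in blue cones, and double-sorted green cones had 29.6 and 23.4. Rods, blue cones and double-sorted green cones overlapped at all 3. Single-sorted green cones, with 17.8 and 14.1 CPM, lay below the other libraries at Htr3a. They lay above both rod libraries at Tfam (73.3 and 73.5 CPM) and below them at Prdm4 (142 and 134 CPM).

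Among the members, some nevertheless differed widely between rods and cones. Counts were scaled by TMM and fitted with the quasi-likelihood model of edgeR, and elements were called when rods differed from both cone groups, taken as a single level, by a log2 fold change beyond 1 (glmTreat) at a Benjamini-Hochberg adjusted p under 0.1. Of 21844 members tested, 612 (2.80%) were called more open in rods, where the background over all 51563 elements tested was 3.98%. In the opposite direction 448 members (2.05%) were called more open in cones, where the background was 18.1%. These libraries and peak lists chose the members, so nothing is read from these shares. The remaining 20784 were called in neither direction, and 2965 of those had a log2 fold change over 1 in size. Both rod libraries lay above all 4 cone libraries at 8836 members (40.5%, background 26.7%) and below all of them at 2626 (12.02%, background 30.2%). The median log2 fold change, rods over cones, was 0.31 over the members and -0.13 over all elements tested.

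The division between the directions depended on the scaling. Rods had 57.7% of the called members with TMM over all elements, 23.5% with TMM over the members alone, which moved their median log2 fold change to -0.02, and 93.5% with the processed reads of each library as library size, which moved it to 0.76. It was 40.7% with total counts as library size, 82.1% with an offset for GC content, added after the data were seen, 47.1% with DESeq2 and 77.5% in the test against no change. Without rod replicate 1 the calls fell to 175 and 174, and without rod replicate 2 to 165 and 188, so that counts in each direction rest on both rod libraries.

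Promoters made up 17.5% of those more open in rods, 29.2% of those more open in cones and 49.1% of the 20803 not called. The 612 members more open in rods had median group means of 48.5 CPM in rods, 13.8 in blue cones and 12.1 in double-sorted green cones. The 448 more open in cones had 9.19 CPM in rods, 38.2 in blue cones and 37.2 in double-sorted green cones. Single-sorted green cones, which the rule and the fit did not use, had medians of 20.4 and 28.5 CPM in these sets. Their mean lay between those of rods and double-sorted green cones at 94.0% and 90.2% of the called members and at 58.3% of the rest. The calls choose members with a wide gap between rods and cones, the double-sorted libraries among them. A mean in between is more likely there whatever the cells, so nothing is read from these shares.

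Members called more open in rods had counts in cones too, as the rule asks. The element upstream of Itsn2, a gene of endocytosis, had 91.8 and 89.5 CPM in rods, 9.11 and 8.17 in blue cones, 7.78 and 12.6 in double-sorted green cones, and 29.5 and 29.2 in single-sorted green cones (log2 fold change 3.31, SE 0.25). The Adgrv1 intron, in an adhesion receptor gene of Usher syndrome, had 45.5 and 43.4 CPM in rods, 5.80 and 5.45 in blue cones, and 4.67 and 5.40 in double-sorted green ones (3.05, SE 0.30). At the Med13l intron, in a gene of the Mediator complex, the values were 70.6 and 72.0 CPM in rods, 5.80 and 6.36 in blue cones, and 14.8 and 8.99 in double-sorted green ones (3.10, SE 0.33). The rod libraries lay apart from all cone libraries at each. Of the 10 members with the largest such differences, 9 were distal, with log2 fold changes of 3.002 to 3.34. They lay near Ebpl, Itsn2, Trib2, Vax2os (2 elements), Med13l, Adgrv1, 1700096K18Rik and Chchd3, and the promoter member was that of Elmod2.

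Of the 10 with the largest differences toward cones, 4 were promoters. The promoter of Galnt13, whose product starts O-linked glycans, had 6.02 and 7.33 CPM in rods, 82.9 and 93.7 in blue cones, 104 and 74.6 in double-sorted green cones, and 53.7 and 61.6 in single-sorted green cones (log2 fold change -3.71, SE 0.26). Mgat4a and Man2a1, which encode Golgi enzymes of N-glycan processing, followed with -3.59 (SE 0.42) and -3.55 (SE 0.43). The element upstream of Jam3, a junctional adhesion gene, had 7.06 and 6.77 CPM in rods, 88.7 and 82.2 in blue cones, 75.5 and 79.1 in double-sorted green cones, and 57.9 and 60.2 in single-sorted green cones (-3.54, SE 0.24). The others were the promoter of Rab3c, a synaptic vesicle gene, the Tex33 intron, and elements near 4930556N09Rik, Rps15a, Gm30933 and 1700113H08Rik. Every cone library, single-sorted ones included, lay above both rod libraries at these 10.

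**Figure D2:**
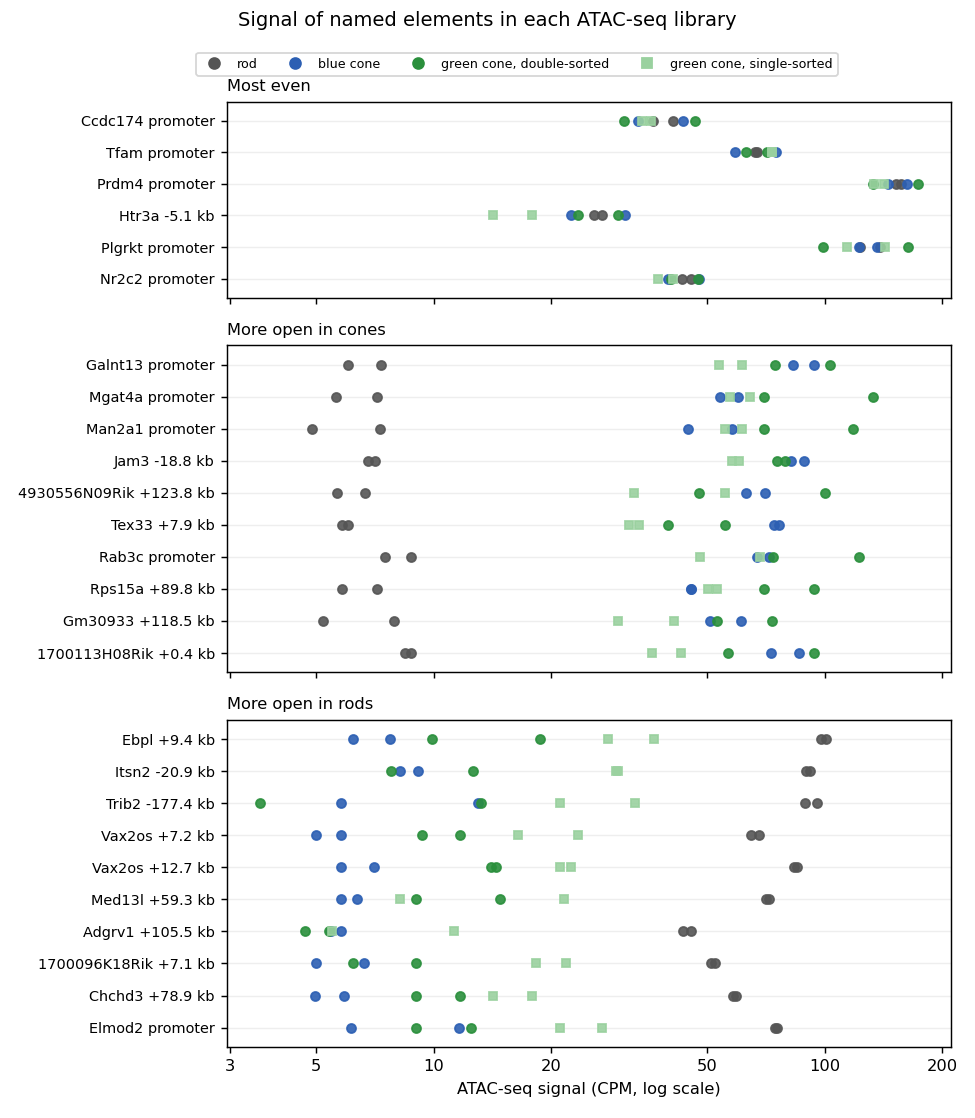
ATAC-seq signal in each of the 8 libraries at the 6 most even members and at the 10 members with the largest difference in each direction, in CPM on a log scale. Circles are rods, blue cones and double-sorted green cones, and squares are single-sorted green cones. In the upper panel rods, blue cones and double-sorted green cones overlap. Single-sorted green cones are lowest at Htr3a and lie apart from rods at some of the others. Rods lie apart from all cone libraries in the other panels.

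Members were present at the promoters of most genes that photoreceptors use for the response to light. Of 21 genes of rod phototransduction, 15 had a member at the promoter. Over all genes the share was 38.2%, and it was 85.9% to 88.0% at 100 or more normalized RNA counts per kb of exon. Of the 16 elements at these 15 genes, 4 were called more open in rods and 0 in cones. Over all promoter members the shares called were 1.03% and 1.26%. At the Grk1 promoter, signal was 126 and 132 CPM in rods, 67.9 and 66.1 in blue cones, and 61.5 and 74.6 in double-sorted green ones (log2 fold change 0.94, SE 0.17). At the promoter of Slc24a1, the rod sodium, calcium and potassium exchanger gene, it was 52.4 and 48.5 CPM in rods, 9.11 and 9.53 in blue cones, and 8.56 and 7.19 in double-sorted green ones (2.52, SE 0.27). Rods lay above the cone libraries at both. Pde6g, Guca1b and Gucy2f held the other called promoters, whose calls were lost with single-sorted green cones alone as the cone group, added after the data were seen. The call of Pde6g was also lost without rod replicate 1, and that of Gucy2f in 6 other alternatives, among them DESeq2 and leaving out either rod library or blue cone replicate 2.

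Of 15 genes of cone phototransduction, 8 had a member at the promoter, on 9 elements. Of these elements 0 were called more open in rods and 1 in cones, where 1.03% and 1.26% of all promoter members were. That element, upstream of Pde6c, the cone phosphodiesterase gene, had 4.99 and 8.46 CPM in rods, 32.3 and 27.7 in blue cones, 7.78 and 27.9 in double-sorted green cones, and 21.7 and 24.2 in single-sorted green cones (log2 fold change -1.84, SE 0.50). Green cone replicate 3 lay in the range of rods, and the call was lost in 9 of the alternatives. The promoter of Gnat2, the cone transducin gene, had 8.31 and 9.02 CPM in rods, 12.4 and 18.4 in blue cones, and 11.7 and 23.4 in double-sorted green ones, and that of Arr3, cone arrestin, 19.1 and 18.05, 52.6 and 46.3, and 33.5 and 41.4. Rods were lowest at both, and neither was called.

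Some of the genes that define rods or cones had their promoter outside the members while a nearby element was a member. The promoters of Gnat1 and Nr2e3 were in the rod list only, that of Opn1sw in the blue and green cone lists, and that of Opn1mw in the green cone list only. Gnat1 had a member 1167 bp and another 3831 bp downstream of its start site. Opn1mw had members 3822 bp and 3494 bp upstream, with 22.2 and 24.2 CPM in rods at the former.

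Among 28 photoreceptor transcription factors, 16 had a member at the promoter, on 20 elements. Of these elements 3 were called more open in rods and 0 in cones, where 1.03% and 1.26% of all promoter members were. The Nrl promoter had 246 and 252 CPM in rods, 126 and 93.5 in blue cones, 6.23 and 21.6 in double-sorted green cones, and 43.5 and 26.5 in single-sorted green cones. Rods and blue cones carry the Nrl-eGFP transgene, and its reads cannot be told apart from those of the endogenous promoter. The promoter of Crx had 89.7 and 87.8 CPM in rods, 42.7 and 33.8 in blue cones, and 3.11 and 35.1 in double-sorted green ones, which differed from each other more than any other pair of replicates there. Neurod1, with 68.3 and 78.8, 52.6 and 60.6, and 62.3 and 73.7 CPM, and Rora, with 89.3 and 92.7, 89.5 and 81.5, and 99.6 and 82.7 CPM, were not called. Both blue cone values at Neurod1 lay below those of rods and of double-sorted green cones, and at Rora the groups overlapped. The promoters called were those of Mef2c (55.3 and 57.9 CPM in rods, 10.4 to 17.99 in the cone groups), Samd11 and Esrrb, and the calls of Samd11 and Esrrb were lost in some alternatives.

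Motifs of transcription factors were searched by their letters on both strands of each element. A match is a description and not a bound site. Matches of different motifs may overlap. Motifs of broadly expressed factors are given for the promoter members beside the other 3730 promoter elements, and their shares were higher in the members. The SP/KLF motif GGGCGGGG was in 34.2% of the promoter members and 20.6% of the other promoter elements, the ETS motif CCGGAAGT in 8.84% and 1.55%, NFY (CCAATCAG) in 6.04% and 2.63%, NRF1 (GCGCATGCG) in 3.74% and 0.643%, CRE (TGACGTCA) in 3.61% and 1.61%, and YY1 (AAGATGGCG) in 3.55% and 0.670%. Over all 53204 elements these motifs were in 11.8%, 2.25%, 2.22%, 0.992%, 1.25% and 1.02%. These are GC-rich words for the most part, and the promoter members were GC-rich too. The Rps6ka2 and Dcun1d4 promoters printed above hold the SP/KLF motif.

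At distal members the shares for motifs of photoreceptor factors were close to those in the other distal elements. The K50 homeodomain motif CTAATCC, bound by CRX and OTX2, was in 10.4% of distal members and 9.19% of the other distal elements (7.61% of all elements), and its variant CTAAGCC in 7.14% and 6.35% (5.61% of all). The nuclear receptor motif AGGTCA was in 16.7% and 18.02% (14.9% of all), the MAF motif TGCTGAC in 4.72% and 4.40% (3.98% of all), and the GATA word GATAA in 23.6% and 27.4% (21.6% of all). CTCF, a factor of chromatin loops and insulators, had its motif in 9.05% and 7.06% (5.96% of all). Lower in members were the Q50 homeodomain motif TAATTA, with 4.42% and 6.70% (4.71% of all), and the bZIP motif TGANTCA, with 5.33% and 8.59% (6.28% of all). The bHLH motifs CATATG and CAGATGG, the MADS motif CTATTTTTA, the RFX motif GTTGCCATG and 3 homeodomain pairs (TAAT with ATTA, TAAT with CTTA and TAAG with CTTA, each separated by 3 bases) were each in 0.403% to 7.59% of the distal members and in 0.412% to 6.63% of all elements.

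**Figure D3:**
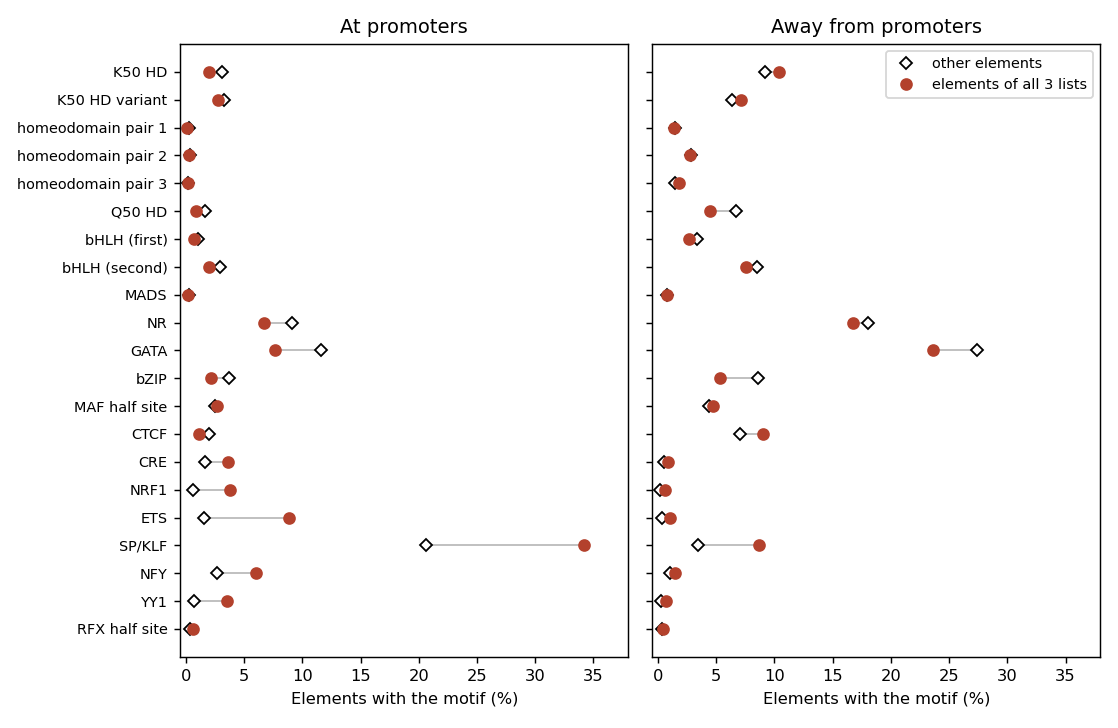
Share of elements that hold each of the 21 motifs, in percent, at promoters and away from them. Filled circles are members and diamonds are all other elements of the same position. At promoters the SP/KLF motif lies at 34.2% in members against 20.6%, and away from promoters the K50 homeodomain motif lies at 10.4% against 9.19%.

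Distal members were also described by the motif they held. The 1034 with a CTCF motif had median group means of 12.7 CPM in rods, 11.5 in blue cones and 11.5 in double-sorted green cones, and 4 were called more open in rods and 11 in cones (0.387% and 1.06%). The 10387 without it had 19.6, 17.2 and 16.4 CPM, with 4.82% and 2.95% called. The Stard10 element, one of the strongest of this kind, had 118 and 118 CPM in rods, 97.8 and 81.3 in blue cones, and 36.6 and 70.1 in double-sorted green ones. Among the 2303 distal members with a nuclear receptor or MAF motif, 8.21% were called more open in rods and 2.82% in cones. Over all distal members the shares were 4.42% and 2.78%. The printed elements with these motifs include Itsn2, Med13l, Adgrv1 and Chchd3, but also Tex33, which was more open in cones. The element near 4930556N09Rik, more open in cones and not printed, holds a MAF motif too. Neither motif is in the named elements more open in rods at Ebpl, Trib2, 1700096K18Rik, Elmod2 and the Vax2os intron. A homeodomain motif was in 2773 distal members, with 6.74% and 4.04% called, and none of the searched motifs in 3386, with 2.86% and 1.71% called. Without double-sorted green cone replicate 3 the shares were 0.580% and 1.06% with CTCF, 10.6% and 3.21% with a nuclear receptor or MAF motif, and 3.75% and 1.98% with none. These shares are descriptions of members chosen on the same libraries.

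Green and blue cones were compared at the members in the same way. Of 21523 members tested, 0 were called more open in green cones and 0 in blue cones by edgeR, where the background over 42732 elements tested was 0.0374% and 0.00234%. The counts at an unadjusted p under 0.05 were 77 (0.358%) and 156 (0.725%), where the background was 4.37% and 2.7%, and DESeq2 called 0 and 1. The peak lists of both cone groups are in the rule, so nothing is read from these shares. Without double-sorted green cone replicate 3 the calls were 16 and 69, and without replicate 4 they were 76 and 666, so that the comparison rests on a pair of green cone libraries that differed from each other. The median log2 fold change, green over blue, was -0.10.

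RNA, which was not used to choose the members, was compared between rods and blue cones with the same edgeR model and limit on the fold change, and called at a Benjamini-Hochberg adjusted p below 0.05. In bulk samples, fewer cells of a type and less RNA per cell cannot be told apart. Over all 12327 genes tested the background was 6.88% higher in rods and 13.3% higher in blue cones. Of the 9059 tested genes with a member at the promoter, 564 (6.23%) were higher in rods and 669 (7.38%) in blue cones, with a median log2 fold change of 0.07. Genes with an element at the promoter but no member there are given beside these. Of 1136 tested, 72 (6.34%) were higher in rods and 516 (45.4%) in blue cones, with a median of -1.40. Their elements lean toward cones by the peak lists. Of the 3730 promoter elements that are not members, 1085 were in the blue and green cone lists and 923 in the blue cone list only. In the rod list only were 311. Of 9585 tested genes nearest to a member, 674 were higher in rods and 952 in blue cones.

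A member at the promoter was found at most genes with RNA in photoreceptors. Genes were placed by their mean normalized count over the 6 RNA-seq libraries, divided by the length of their exons in kb. The share with a member at the promoter was 3.52% below 1 per kb (350 of 9934 genes), 20.3% from 1 to 10, 61.1% from 10 to 100, 85.9% from 100 to 1000, 88.0% from 1000 to 10000 and 85.9% above (61 of 71). The share was higher in each bin up to 100 per kb and lay between 85.9% and 88.0% beyond it. Gnat1 and Opn1sw, with high RNA in rods or blue cones, had no member at the promoter.

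**Figure D4:**
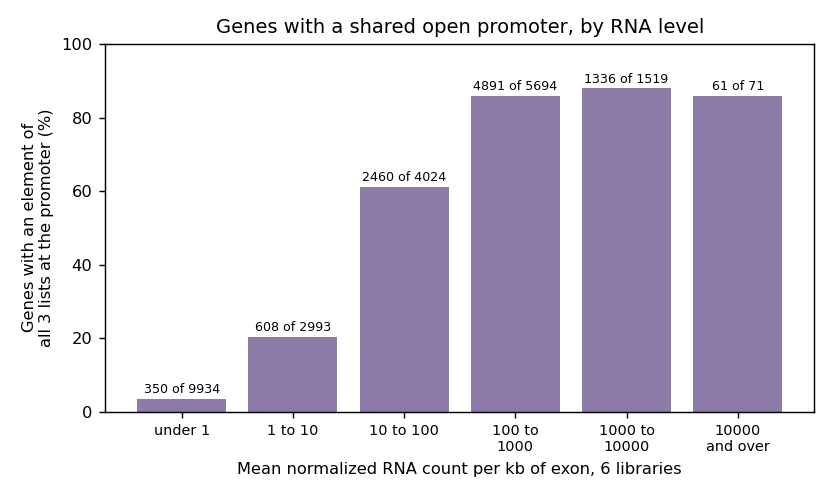
Share of genes with a member at the promoter, in percent, by mean normalized RNA count per kb of exon over 3 rod and 3 blue cone libraries. Numbers above the bars are the genes with a member and all genes of the bin, and the share goes from 3.52% in the lowest bin to 85.9% in the highest.

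Large RNA differences between rods and blue cones were found at genes whose promoter was a member. Aqp1, an aquaporin gene, was at 1912, 1917 and 1964 normalized counts in rods against 11.5, 15.8 and 5.88 in blue cones (log2 fold change 7.44, SE 0.22, edgeR adjusted p = 2.2e-10). Its promoter, printed above, had 97.2 and 97.0 CPM in rods, 46.4 and 44.9 in blue cones, and 69.3 and 42.3 in double-sorted green ones, and was not called. Ece1, the endothelin-converting enzyme gene, had 65.8, 69.05 and 87.3 in rods against 19323, 18230.4 and 17662 in blue cones (-7.96, SE 0.17, edgeR adjusted p = 3.41e-11), and its promoter had 10.2 and 8.27 CPM in rods, 45.2 and 43.4 in blue cones, and 24.1 and 45.0 in double-sorted green ones. Both assays put Ece1 higher in blue cones, with no overlap between the groups. Nptx2, a neuronal pentraxin gene, had 0, 1.17 and 1.25 normalized counts in rods and 104.5, 114 and 187 in blue cones, and its promoter had 58.8 and 54.1 CPM in rods against 53.4 and 52.0 in blue cones.

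The 10 genes with the largest difference toward rods were Glt28d2, Gucy2f, Aqp1, Slc24a1, St8sia1, Ptpru, Epas1, Glb1l2, Nfasc and St3gal1, with RNA log2 fold changes of 6.21 to 8.99. The 10 toward blue cones were Ebf2, Ece1, Igsf3, Gnat2, Aplp1, Nptx2, Mfng, Pde6c, Klhl33 and Usp43. Ebf2, a transcription factor gene, had 0 counts in all 3 rod libraries and 136 to 159 normalized counts in blue cones, and its promoter nevertheless had 44.2 and 37.97 CPM in rods, 74.2 and 75.4 in blue cones, and 62.3 and 37.8 in double-sorted green ones. At Glb1l2, a galactosidase-like gene with RNA of 18418 ± 586 in rods and 206 ± 25.1 in blue cones, promoter signal was 130.5 and 134 CPM in rods, 42.3 and 32.9 in blue cones, but 118 and 94.4 in double-sorted green cones.

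Across all genes with a member at the promoter, most RNA differences were found at promoters that were called in neither direction. Of the 564 genes higher in rods, 34 had a promoter member called more open in rods and 2 in cones, and 528 (93.6%) neither. Of the 669 higher in blue cones, 3 and 66 were called and 600 (89.7%) neither. Of the 7826 without an RNA call, 61 and 32 were called. At genes with a difference of at least 16-fold, 17 of 51 were called more open in rods at genes higher in rods and 26 of 101 were called more open in cones at genes higher in blue cones, and 0 in the opposite direction in both. Their median promoter log2 fold changes were 0.96 and -0.87. Without double-sorted green cone replicate 3 these counts were 20 and 32. Over the 9059 genes the 2 log2 fold changes had a Pearson's r of 0.26 and a Spearman rank correlation of 0.10. Genes are not independent replicates, and the rod libraries came from the same mouse line in both assays.

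**Figure D5:**
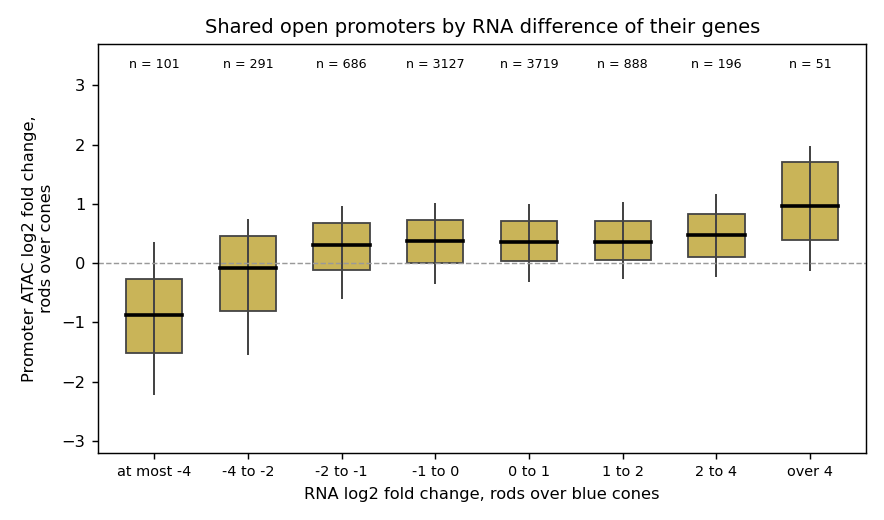
Log2 fold change of ATAC-seq signal at the promoter member, rods over cones, for genes grouped by RNA log2 fold change, rods over blue cones. Boxes span the quartiles with the median as a line, thin lines run from the 10th to the 90th percentile, and n is the number of genes. Medians stay between 0.30 and 0.47 from an RNA log2 fold change of -2 to 4, and are -0.87 at the lowest and 0.96 at the highest RNA differences.

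The RNA of the gene nearest to a called member was examined next. Of the 437 tested genes nearest to a member more open in rods, 129 (29.5%) were higher in rods and 18 (4.12%) in blue cones, where the background was 6.88% and 13.3%. Of 255 nearest to a member more open in cones, 8 (3.14%) were higher in rods and 143 (56.1%) in blue cones. Of 9408 nearest to a member not called, 639 (6.79%) and 880 (9.35%) were. No test of these differences was made.

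Genes of phototransduction were then taken by list. Of the rod phototransduction genes with a promoter member, 7 of 15 were higher in rods and 0 in blue cones. Among the rod genes of the list without one, 6 were higher in rods and 0 in blue cones. The background over all genes tested was 6.88% and 13.3%. Guca1b, which encodes a guanylate cyclase activator, had 99324 ± 7275 normalized counts in rods and 9974 ± 1425 in blue cones (log2 fold change 3.32, SE 0.15, edgeR adjusted p = 2.28e-08). Sag, rod arrestin, had 412594 ± 36579 and 245385 ± 50372 and did not pass the test. Of the 8 cone phototransduction genes with a promoter member, 5 (Gnat2, Gnb3, Pde6c, Arr3 and Kcne2) were higher in blue cones. Kcnv2, a potassium channel subunit gene, was higher in rods, a call lost with DESeq2 and in 6 other alternatives. Among the cone genes of the list without a promoter member, 7 were higher in blue cones and 0 in rods. Gnb3, the cone transducin beta subunit gene, had 4800 ± 792 in rods and 248881 ± 10089 in blue cones, while its promoter had 47.4 and 40.2 CPM in rods, 65.9 and 49.7 in blue cones, and 14.8 and 82.7 in double-sorted green ones.

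Of 15 tested transcription factor genes with a promoter member, 6 were higher in rods (Nrl, Esrrb, Mef2c, Rorb, Samd7 and Samd11) and Prdm1 was higher in blue cones. Among the listed factors without one, 1 was higher in rods and 6 in blue cones, so that the whole list had 7 in each direction. The background over all genes tested was 6.88% higher in rods and 13.3% higher in blue cones. Neurod1, a bHLH factor of photoreceptors, had 48455 ± 2831 in rods and 50245 ± 3228 in blue cones. All 18 listed outer segment genes in the table had a member at the promoter, with 6 higher in rods, among them the scaffold genes Fscn2 (log2 fold change 4.54, SE 0.16) and Rom1 (2.01, SE 0.17), and Cdhr1 higher in blue cones. Of 18 synapse genes, 14 had one, with Rims2 higher in rods, lost in 4 alternatives, and Syp, synaptophysin, higher in blue cones (-1.79, SE 0.13).

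Genes that every cell uses had members at most promoters. A member was at the promoter of 34 of 38 cytosolic ribosomal protein genes, 30 of 31 proteasome subunit genes, 9 of 12 RNA polymerase II subunit genes, and 11 of 13 genes of cohesin and CTCF. In these lists 0 genes passed the RNA test by edgeR in either direction. The background over all genes tested was 6.88% higher in rods and 13.3% higher in blue cones. Of their 109 promoter elements 0 were called, where 1.03% of all promoter members were called more open in rods and 1.26% in cones. At such shares few calls are due among 109 elements, and nothing is read from this 0. Glycolysis had 16 of 18, with Eno1 and Pfkp higher in rods (log2 fold changes 2.76, SE 0.28, and 2.28, SE 0.13), and Pfkm, which had no member there, higher in blue cones (-2.52, SE 0.12). Reads of Eno1, of Gapdh and of ribosomal protein genes are shared with near-identical copies, so their counts are uncertain. The nuclear lamina and envelope list had 12 of 13, with Lmnb1, Syne1 and Syne2 higher in rods and Lmna, the gene without one, higher in blue cones (-5.20, SE 0.38). The clock list had 12 of 13, with Dbp and Csnk1e higher in blue cones. Of 11 immediate early genes, 9 had one, and Fos, Egr1, Junb and Nr4a1 were higher in blue cones, as was Egr3, which had none. Nr4a1 had 114 ± 11.3 normalized counts in rods and 2297 ± 331 in blue cones. These genes are known to respond rapidly to many stimuli.

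Lists of other cells and of development had few members. The share was 5 of 24 for neurodevelopmental factors, 1 of 12 for bipolar cells (Prkca), 0 of 10 for amacrine cells, 1 of 6 for horizontal cells, 0 of 10 for ganglion cells, 4 of 12 for Mueller glia, 1 of 11 for microglia, 0 of 8 for endothelial cells and 2 of 11 for retinal pigment epithelium. Markers of some of these cells moved with the RNA groups. Bipolar markers summed to 9917 to 11140 normalized counts in rods and to 39466 to 44943 in the blue cone libraries, with 4 of 12 higher in blue cones and Prkca higher in rods. Mueller glia markers summed to 2828 to 4698 and 16869 to 20507, with 2 of 12 higher in blue cones, and microglia markers to 342 to 455 and 1102 to 2615, with 7 of 11. Without its most abundant gene, a choice made after the data were seen, the sums were 9643 to 10728 and 9751 to 11594 for the bipolar list (without Cabp5) and 1950.4 to 3235 and 3025 to 4721 for the Mueller glia list (without Clu). The sums were 266 to 351 and 656 to 714 for ganglion cells (2 of 10 higher in blue cones), 1187 to 1700 and 2551 to 2646 for horizontal cells (1 of 6), 129 to 238 and 156 to 161 for retinal pigment epithelium (1 of 11), 2465 to 2894 and 1608 to 1890 for amacrine cells (0 of 10) and 208 to 278 and 60.2 to 121 for endothelial cells, where 1 of 8 was higher in rods. The amacrine markers Slc32a1 and Chat and the ganglion cell markers Pou4f2 and Thy1 were listed at 0 in all 6 libraries. The part of other cells in the RNA differences was not tested.

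The values at the limit of the rule varied. The members with the smallest overlap, of 1 or 2 bp with a window, were at Marveld2, Pigx and Mcat. At the Pigx promoter, signal was 15.6 and 17.9 CPM in rods, 13.3 and 17.9 in blue cones, and 24.1 and 17.1 in double-sorted green ones. Just outside, at 0 bp from a window of the list they missed, were elements at Cstdc2, Ddx20 and Ptbp3. The Ddx20 element had 20.6 and 24.2 CPM in rods, 44.7 and 38.8 in blue cones, and 52.9 and 73.7 in double-sorted green ones. With an overlap of at least 100 bp as the rule, 21605 elements would be members.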

How the data were processed

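ATAC-seq reads had been aligned to GRCm38 by the authors (Bowtie2 2.2.3), filtered at a mapping quality of 30 (SAMtools 1.3), and kept for inserts of up to 100 bp once Picard 1.121 had removed duplicates. Peaks were called by MACS2 2.1.0 on pooled replicates at an irreproducible discovery rate of 0.01. For RNA-seq they used STAR 2.4.2a and counted reads per RefSeq gene with HTSeq 0.6.1p1. HOMER 4.8 and bedtools 2.24.0 are also listed in the submitters' processing notes, and the strand setting of the counting is not given in the sources used here. The deposited tables hold raw counts per 200 bp element and per gene, with no normalization. Reads without a gene, 41.3% to 49.2% of each RNA-seq library, were left out of library sizes and tests. The deposited peak lists give a MACS2 score, the position of the summit, a −log10 q and a ratio (fold enrichment), all without replicates.

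Members were found from summit windows of the peak lists, whose coordinates count from 0, and printed coordinates count from 1. The members and all lists were chosen with earlier results of these data known. Printed values are TMM-scaled in both assays, as CPM for ATAC-seq (factors of 0.922 to 1.05) and as normalized counts for RNA-seq. Elements and genes kept by filterByExpr of edgeR 4.0.16 in R 4.3.3 were fitted with its quasi-likelihood model, all features of a table together, and tested with glmTreat against a log2 fold change of 1. Benjamini-Hochberg adjusted p-values, two-sided, had to lie under 0.1 for ATAC-seq and under 0.05 for RNA-seq. The study used DESeq2 for ATAC-seq and for RNA-seq, and DESeq2 1.42.0 is an alternative here. The scripts were tested on simulated counts. No covariate was fitted, because replicate numbers did not pair the libraries. Positions came from curated RefSeq transcripts of GRCm38.p6, and of 26180 genes 24235 were found in the RNA table. Python 3.11.15 with pandas 2.3.3, numpy 2.4.6 and matplotlib 3.10.9 was used. Depth limits the precision most in double-sorted green cones, where the median member had 26 and 25 counts, against 136 and 149 in rods.

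Named elements were the 10 members with the highest mean, up to 10 called members with the largest change in each direction with at least 5 CPM in every group, the 6 most even members of at least 20 CPM, and 3 on each side of the limit of the rule. Named genes were Nrl, the 10 with the largest RNA change in each direction among those with a member at the promoter and 100 or more normalized counts in the higher group, the genes of the phototransduction and transcription factor lists with a member at the promoter, the 5 nearest to the most members with ties, and up to 4 of each other list, 22 lists in all. Other names in the text were chosen after their values were seen. No element or gene of chromosome 18 is named.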

Additional observations from a re-analysis of the deposited data

How the results depend on the processing

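The number of members more open in rods was 612, and that of members more open in cones was 448. For members more open in rods it was 171 with DESeq2, 389 with total counts as library size, 1434 with processed reads as library size, 247 with TMM over the members only, 6142 in the test against no change and 1079 with blue cones alone, and, in alternatives added after the data were seen, 1553 with the GC offset and 347 with single-sorted green cones alone as the cone group. For members more open in cones it was 192 with DESeq2, 100 with processed reads, 804 with TMM over the members only and 1784 against no change. Without each library in turn the counts ranged from 165 to 775 and from 174 to 503, lowest without a rod library, where the remaining one is assumed to vary like the other groups. When single-sorted green cones replaced the double-sorted ones, and with size factors of DESeq2 in edgeR, no filter, or an overlap of 100 bp, both counts stayed within 1.5 times. Except for the changed tests and libraries, whose construction is given, the cause was not tested.

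Members more open in green cones numbered 0, and members more open in blue cones 0. These counts were 1 and 3 with TMM over the members only, 53 and 89 against no change, and 23 and 25 with single-sorted green cones. Members more open in blue cones were 1 with DESeq2, 2 with its size factors in edgeR and 3 with no filter. Without each library in turn the ranges were 0 to 76 for green cones and 0 to 666 for blue cones. Without replicate 3 the counts were 16 and 69, without replicate 4 they were 76 and 666, and without blue cone replicate 2 they were 0 and 1.

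For genes with a member at the promoter, RNA higher in rods numbered 2905 and RNA higher in blue cones 2496 against no change, and 488 to 720 and 599 to 709 without each library in turn. For genes nearest to a member, RNA higher in rods numbered 3039 and RNA higher in blue cones 2837 against no change, and 594 to 844 and 859 to 994 without each library. All other alternatives kept these 4 counts within 1.5 times. The percent of members at a promoter was 44.8 with promoters of 500 bp. Replicate numbers did not pair the libraries, since deviations of same-numbered libraries correlated at 0.0591 in ATAC-seq and at 0.176, 0.089 and 0.008 in RNA-seq. With the replicate block the counts were 1102 members more open in rods and 629 members more open in cones, and 591 and 676 genes with a member at the promoter. Green and blue cones share no numbers, so that no paired analysis was possible there.

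Of 35 named elements with a call, 12 lost it in some alternative, and of 72 named genes 7 did, among them Csnk1e, Grik1, Kcnv2, Rcvrn, Rims2 and Tyrobp. No direction was reversed.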
